A study of Mus musculus with 8 samples.

Results

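The genes described here encode the proteins with which a cell handles the acid and lactate that its metabolism produces. They are 9 genes of the 53465 in the count table: Car9, Car12, Car2 and Car13 (carbonic anhydrases), Slc16a1 and Slc16a3 (lactate transporters), Bsg (their chaperone), Slc4a7 (a bicarbonate transporter) and Ldhb (a lactate dehydrogenase subunit). They were chosen by name, with earlier results of the same oxygen contrast known, so their values are given as a description without a test. The other genes of the same families, 91 in all, were listed whole and were tested.

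RNA-seq was performed on mouse bone mesenchymal stem cells (MSCs, stromal cells that can form bone, fat and cartilage) from wild-type male C57BL/6 N mice aged 3 to 5 months, without a transgene in either group. All cells were grown from bone under 2% oxygen in α-MEM and sorted as CD45-/TER-119-/Sca-1+/CD140a+ on day 12 according to the labels. The sorted population was then divided between 2% oxygen (hypoxia, 4 samples) and 21% oxygen (normoxia, 4 samples) for a further week. Both groups therefore share an expansion under hypoxia, and normoxia here is a shift made after sorting. Whether each sample is 1 mouse or a pool is not given in the sources used here, and p-values measure the spread between these samples.

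The libraries held 12898291 to 25132141 counts, and hypoxia replicate 1 was by far the deepest. Of 10 MSC markers all were detected, with summed levels of 4018 to 4848 CPM (counts scaled to the library total with TMM factors) in hypoxia and 4326 to 4688 CPM in normoxia, and 4 of them passed the test (Cd44, Itgb1 and Nt5e higher in normoxia, Eng lower). The 8 macrophage and blood markers were also present, although CD45+ cells had been sorted out. Their summed level was 496 to 982 CPM in hypoxia and 604 to 1132 CPM in normoxia, and 1 of the 8, Lyz2, passed the test, with a higher value in normoxia. Lyz2 carries much of this sum. The other 7 markers summed to 235, 332, 546 and 422 CPM in hypoxia and 205, 252, 441 and 302 CPM in normoxia, lower in 4 of 4 same-numbered pairs, and 6 of the 8 markers had negative changes (Csf1r -0.59), none of which passed the test. In bulk samples, fewer cells of a type and less RNA per cell cannot be told apart. Erythroid markers summed to at most 0.963 CPM and endothelial markers to at most 3.44 CPM in any sample.

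Carbonic anhydrases interconvert carbon dioxide and water with bicarbonate and a proton. Car9 and Car12 encode enzymes anchored in the plasma membrane with the active site outside the cell, whereas Car2 and Car13 encode cytosolic enzymes. Cells that live on glycolysis export lactate together with a proton through monocarboxylate transporters, of which MCT4 (Slc16a3) is typical of cells that release lactate and MCT1 (Slc16a1) works in both directions. CAR9, MCT4 and lactate dehydrogenase A are well known as products of genes induced by hypoxia-inducible factors (HIF).

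Of these genes, Car9 differed most between the oxygen levels, at 5.15-fold higher mean CPM in hypoxia. Slc16a3 was 1.60-fold and Bsg 1.14-fold higher in hypoxia, while Ldhb and Slc4a7 were 1.13-fold higher in normoxia. Car12, Car13 and Slc16a1 had similar means in both groups, and Car2 was barely detected. Counted by the limma-trend criterion that was applied to all 14369 tested genes (adjusted p under 0.05), 3 of the 8 genes that passed the filter on low counts were lower in normoxia and 0 were higher, where 16.5% and 18% of all tested genes were. With the replicate number as a block, the numbers were 3 and 2 (Slc4a7 and Ldhb), against 22.7% and 23.3% of all tested genes, or 46% in either direction. The values of the groups did not overlap for 4 of the 8 (Car9, Bsg, Slc4a7 and Ldhb), where this held for 32.6% of all tested genes. Nothing is read from these counts, since the genes were chosen with this contrast known.

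**Figure D1:**
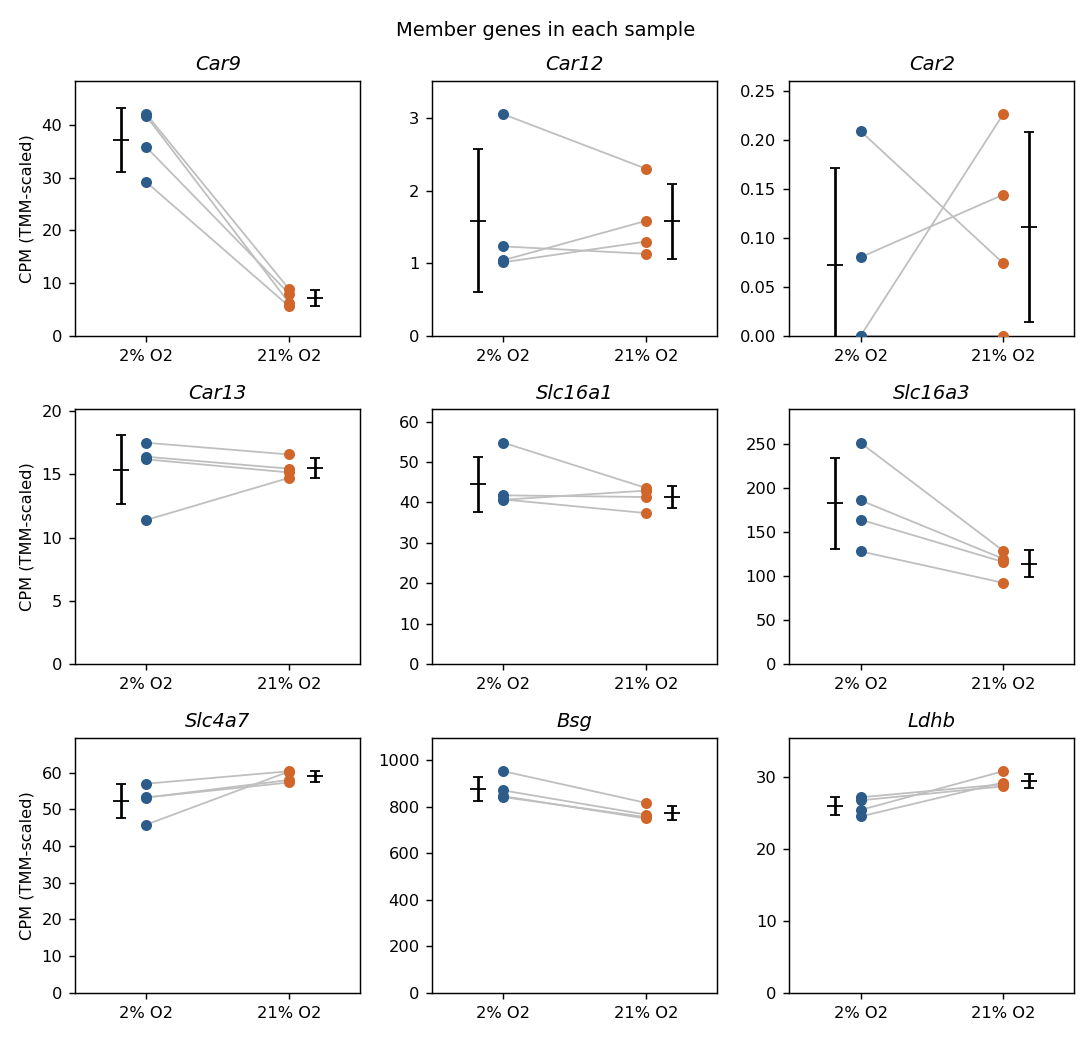
CPM (TMM-scaled, linear axis from 0) of the 9 genes in each sample at 2% and 21% oxygen; points are samples, grey lines join samples with the same number, and black marks show the mean and SD of 4 samples. Car9 is separated by a wide gap, Slc16a3 is lower at 21% along every line although its groups overlap slightly, and Car2 lies below 0.25 CPM throughout.

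Car9 (ENSMUSG00000028463, chromosome 4, 43506966 to 43513729, plus strand) had 35.7, 29.1, 41.6 and 42.0 CPM in hypoxia replicates 1 to 4, and 8.02, 5.62, 6.28 and 8.89 CPM in normoxia replicates 1 to 4. The lowest hypoxia sample thus stood above 3 times the highest normoxia sample. Means were 37.1 ± 6.05 and 7.20 ± 1.52 CPM (± SD of 4 samples). On the log2 CPM scale the change from hypoxia to normoxia was -2.34 with a standard error of 0.16. Between samples with the same number it was -2.13, -2.33, -2.69 and -2.21. The gene remained detected in normoxia, with 78 to 118 counts per sample. An antisense transcript, Gm12454, overlaps 9.29% of its exon bases and had 59 counts in all 8 samples together against 2687 for Car9.

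Among the 9 genes, Car9 and Slc16a3 were lowest in normoxia relative to hypoxia. The promoters of both hold the core letters of the hypoxia response element close to the transcription start of RefSeq. RefSeq sequences of 300 bases, from 250 before to 50 after the start (GRCm38.p6), were held for 6 of the 9 genes, and were searched for ACGTG or GCGTG on either strand. None was held for Bsg, Car2 or Car13. Distances are counted from the RefSeq start, which lies 60 bases after the start of the GENCODE gene for Car9, 587 bases after that for Slc16a3, 16505 bases after that for Slc4a7, and within 4 bases of it for the other 3 genes. Such a match occurs in 43.8% of all 32851 promoters of this length, and ACGTG on either strand in 19.6%. These shares are not matched for GC content, which was 73.3% in the promoter of Slc16a3 and 73.7% in that of Slc16a1. It was 58.3% for Car9 and Car12, 57.3% for Ldhb and 45% for Slc4a7. Car9 has 1 match, 18 bases before the start, and Slc16a3 has 2, the nearer one 14 bases before it. The log2 change of Slc16a1 was -0.097, and -0.30 when GC content and length of the transcripts were accounted for. Slc16a1 has 5 matches, of which 2 are a single palindromic CACGTG read on both strands. Ldhb, which was higher in normoxia, has 1, and Car12 and Slc4a7 have 0. A match is a description of the letters and not of a bound site. The match nearest to the start is shown for each of the 4 promoters that have one, 5′ to 3′ on the strand of the gene, with the match in capitals (chr4:43506996-43507025, chr11:120949041-120949070, chr3:104638672-104638701 and chr6:142508066-142508095, in the order shown). CACGT in the Car9 window is ACGTG on the opposite strand.
Car9: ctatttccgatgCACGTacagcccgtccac
Slc16a3: cgtgcgcgggggACGTGccgcgcgacggat
Slc16a1: tggcgagctgcgACGTGactggtcggtcgt
Ldhb: gcgggggagagcGCGTGcacactccagcct

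Car12 (ENSMUSG00000032373, chromosome 9, 66713686 to 66766845), the other membrane-bound isoform among these genes, did not follow Car9. It had 3.05, 1.04, 1.01 and 1.23 CPM in hypoxia and 2.30, 1.58, 1.30 and 1.13 CPM in normoxia. The groups overlapped, and hypoxia replicate 1 was the highest of all samples. The log2 change was 0.085 ± 0.32. (SE) Without hypoxia replicate 1 it was 0.41 (SE 0.26). With 13 to 73 counts per sample and errors of this size, a small difference would not have been detected.

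Of the cytosolic isoforms, Car13 (ENSMUSG00000027555, chromosome 3, 14641727 to 14663002) had 16.4, 17.5, 11.4 and 16.2 CPM in hypoxia and 15.4, 16.6, 14.7 and 15.1 CPM in normoxia. The normoxia samples lay within the range of the hypoxia samples. Its log2 change was 0.027 ± 0.13. (SE) Car2 (ENSMUSG00000027562, chromosome 3, 14886273 to 14900770), the isoform of red cells and osteoclasts, had 5, 1, 0 and 0 counts in hypoxia and 1, 2, 0 and 3 in normoxia. It did not pass the filter, and no fold is given because both groups lie around the floor of 3 counts per library, which corresponds to 0.119 to 0.233 CPM. Car13, Car1, Car3 and Car2 lie in this order next to each other on chromosome 3, between 14641727 and 14900770. Of these neighbours Car1 had 0 counts in every sample, Car3 had 3 to 30 counts, and only Car13 had more than 100 counts in every sample.

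Of the other 12 carbonic anhydrase genes, 5 were tested. 2 fell in normoxia, 2 rose and 1, Car11, did not pass (80% called, where 34.6% of all tested genes were). Car6, which encodes a secreted isoform best known from saliva, had 20.7, 18.5, 23.7 and 22.3 CPM in hypoxia and 11.3, 10.4, 11.4 and 15.6 CPM in normoxia, without overlap. It fell by 0.81 on the log2 scale (SE 0.13, limma-trend adjusted p = 0.00069). Car3, a cytosolic isoform abundant in muscle and fat, fell by 1.52 (SE 0.35, adjusted p = 0.0054) from 9 to 30 counts per sample in hypoxia to 3 to 5 counts in normoxia. Car5b, which encodes a mitochondrial isoform, rose by 0.57 (SE 0.11, adjusted p = 0.0018), from 15.1 to 19.9 CPM in hypoxia to 24.6 to 31.6 CPM in normoxia. Car8, a relative that lacks the enzyme activity, rose by 1.01 (SE 0.29, adjusted p = 0.018) on 2 to 11 counts per sample. Its call was lost without normoxia replicate 1 (adjusted p = 0.062) and without normoxia replicate 3 (0.056), and with the GC content and length correction, without the replicate block (0.052) and with it (0.059). With the correction 3 of the 5 genes were thus called (60%, against 29.5% of all tested genes). The 7 genes that were not tested had at most 8 counts in a sample.

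Expressed per kb of merged exon, so that isoforms can be compared, the 16 carbonic anhydrase genes summed to 39.4 ± 3.35 CPM per kb in hypoxia and 22.3 ± 1.69 in normoxia (mean and SD of 4 samples). The samples did not overlap, with 35.1 to 43.0 against 20.7 to 24.4. In hypoxia Car9 made up 40.6 ± 3.57% of this sum, Car6 29.7 ± 1.57%, Car13 17.1 ± 3.97% and Car5b 7.07 ± 0.68%. In normoxia Car9 made up 13.9 ± 1.97%, against 29.9 ± 3.83% for Car6, 30.3 ± 2.94% for Car13 and 18.7 ± 2.39% for Car5b. Car9 thus went from the most abundant isoform in every hypoxia sample to the fourth in normoxia, behind Car13, Car6 and Car5b. Car6 and Car13 did not differ beyond their spread in normoxia. With the length of the longest transcript in place of merged exons, Car9 was again the first in every hypoxia sample and the fourth in every normoxia sample, and the normoxia shares of Car6, Car5b and Car13 were 27.7%, 27.6% and 24.2%, so that the order of these genes depends on the length used. The log2 ratio of Car9 to Car13 per length, chosen after the levels were seen, was 1.27 ± 0.47 in hypoxia and -1.13 ± 0.35 in normoxia, with every hypoxia sample above 0 and every normoxia sample below it. The log2 ratio of Car9 to Car12 was 6.42 ± 0.80 and 3.94 ± 0.55, also without overlap. By the longest transcript it was 5.58 and 3.10, with the same difference.

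**Figure D2:**
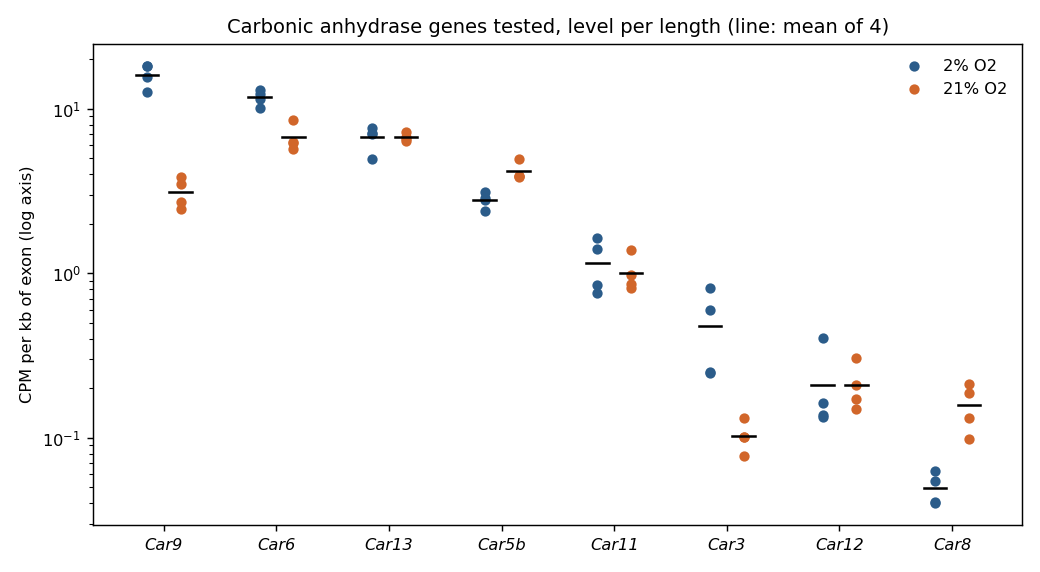
Level per length (CPM per kb of exon, log axis) of the 8 carbonic anhydrase genes that were tested, with 4 samples per oxygen level as points and their mean as a line. Car9, Car6 and Car3 lie lower at 21% oxygen, Car5b and Car8 lie higher, and the points of Car13, Car11 and Car12 overlap.

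Lactate export was described by its transporters and their chaperones. Slc16a3 (ENSMUSG00000025161, chromosome 11, 120948480 to 120960868) had 251.8, 128.4, 186.5 and 164.5 CPM in hypoxia replicates 1 to 4 and 129.1, 92.7, 119.9 and 116.4 CPM in normoxia replicates 1 to 4. Hypoxia replicate 2 lay just below normoxia replicate 1, and otherwise the groups were separate. All 4 same-numbered differences were negative on the log2 scale, at -0.96, -0.47, -0.64 and -0.50. On the log2 scale this was -0.64 ± 0.17 (SE), and -0.47 without hypoxia replicate 1, the sample with the highest value. The standard error was 0.064 with the replicate block.

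Slc16a1 (ENSMUSG00000032902, chromosome 3, 104638668 to 104658462) had 54.8, 40.7, 41.8 and 40.8 CPM in hypoxia and 43.6, 42.9, 41.4 and 37.4 CPM in normoxia. Hypoxia replicate 1 stood apart and the other 7 samples lay close together. Its log2 change was -0.097 ± 0.098 (SE), and 0.0067 without hypoxia replicate 1. It was -0.30 (SE 0.094) when GC content and length of the transcripts were accounted for. Per kb of exon, Slc16a3 was the more abundant of the pair in all samples. The log2 ratio of Slc16a3 to Slc16a1 was 1.94, 1.39, 1.89 and 1.75 in hypoxia and 1.30, 0.85, 1.27 and 1.37 in normoxia. This corresponds to geometric mean ratios of 3.35 and 2.29 per merged exon length, or 4.11 and 2.82 per length of the longest transcript. The ratio was lower in normoxia in 4 of 4 same-numbered pairs and the groups did not overlap.

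Bsg (ENSMUSG00000023175, chromosome 10, 79704491 to 79711969) encodes basigin (CD147), the chaperone that brings MCT1 and MCT4 to the cell surface. It was by far the most abundant of the 9 genes per length, at 483 ± 28.5 CPM per kb of exon in hypoxia and 425 ± 16.8 in normoxia (mean and SD of 4 samples). Its CPM were 845, 841, 870 and 952 in hypoxia and 749, 755, 766 and 816 in normoxia, without overlap. The log2 change was small, at -0.18 ± 0.062 (SE), and it turned to 0.031 when GC content and length of the transcripts were accounted for. By the criterion used above for all genes, Bsg was also no longer counted with library totals only, without the filter, and without hypoxia replicate 3 or 4 or normoxia replicate 1, 2 or 3. Embigin (Emb), the alternative chaperone of MCT1, had 104.1 to 128.2 CPM in hypoxia and 124.2 to 154.7 CPM in normoxia. Its log2 change of 0.23 (SE 0.085) did not pass the test (limma-trend adjusted p = 0.055) but passed with the replicate block (0.00083). With the GC content and length correction the change of Emb was 0.088. It then did not pass, either without the block (limma-trend adjusted p = 0.45) or with it (0.13).

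Of the 15 other genes for monocarboxylate transport, Emb among them, 10 were tested, of which 2 fell, 0 rose and 8 did not pass (20% called, against 34.6% of all tested genes). Slc16a14, an orphan member of the family, fell by 0.89 (SE 0.22, limma-trend adjusted p = 0.0089) on 7 to 29 counts per sample. Slc16a7 (MCT2), which takes up lactate and pyruvate with high affinity, was at 0.893 ± 0.090 and 0.792 ± 0.078 CPM per kb of exon in hypoxia and normoxia, well below MCT1 and MCT4.

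Lactate dehydrogenase is a tetramer of A and B subunits, of which A is known to favour the conversion of pyruvate to lactate and B the reverse. Ldhb (ENSMUSG00000030246, chromosome 6, 142490249 to 142507957, minus strand) had 24.5, 25.4, 26.8 and 27.2 CPM in hypoxia and 29.3, 30.8, 28.7 and 29.0 CPM in normoxia. Every normoxia sample was above every hypoxia sample, by a narrow margin. The log2 change was 0.18 ± 0.069. (SE) A processed pseudogene with 98.0% identity over 1002 bases (Gm5514) held 4 counts in all samples together against 3205 for Ldhb. Its partner Ldha, which is not among the 9 genes, fell by 0.43 (SE 0.11, limma-trend adjusted p = 0.011), from 998 to 1517 CPM in hypoxia to 837 to 1030 CPM in normoxia, ranges that overlap slightly. The log2 ratio of Ldha to Ldhb per length was 4.87, 4.22, 4.56 and 4.46 in hypoxia and 4.06, 3.69, 3.97 and 3.94 in normoxia. RNA of the A subunit was thus in excess in every sample. Geometric mean ratios were 23.0 and 15.1 per merged exon length, or 34.9 and 22.8 per length of the longest transcript. The RNA ratio was lower in normoxia in 4 of 4 same-numbered pairs, and here too the groups were separate.

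**Figure D3:**
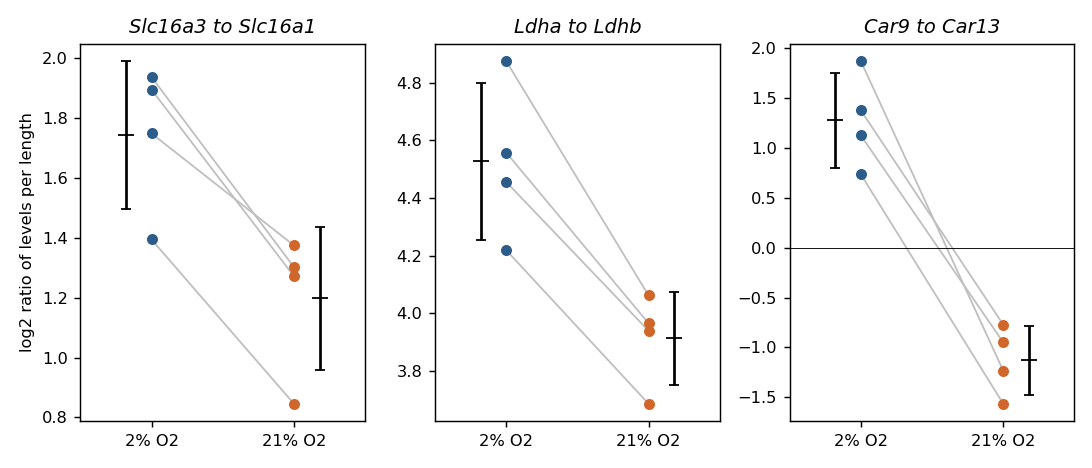
Log2 ratio of levels per kb of exon in each sample for Slc16a3 to Slc16a1, Ldha to Ldhb, and Car9 to Car13, at 2% and 21% oxygen; points are samples, grey lines join samples with the same number, and black marks are the mean and SD of 4. All 3 ratios are lower at 21% oxygen along every line, and only that of Car9 to Car13 crosses 0.

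In the control of intracellular pH, Slc4a7 (NBCn1, ENSMUSG00000021733, chromosome 14, 14702279 to 14799940) brings sodium and bicarbonate into the cell. It had 57.0, 53.2, 53.2 and 45.8 CPM in hypoxia and 60.4, 58.0, 57.3 and 60.3 CPM in normoxia. The highest hypoxia sample was just below the lowest normoxia sample. The log2 change was 0.18 ± 0.071 (SE), and -0.018 when GC content and length were accounted for. Of the 9 other Slc4 genes 5 were tested, of which 1 fell, 0 rose and 4 did not pass (20% called, against 34.6% of all tested genes). Slc4a11, a proton-conducting relative of the bicarbonate transporters, fell by 0.74 (SE 0.18, limma-trend adjusted p = 0.0075) on 23 to 94 counts per sample. Slc4a2 (AE2), an anion exchanger and the most abundant of the family, was at 12.8 ± 0.59 and 11.7 ± 0.33 CPM per kb of exon in hypoxia and normoxia. It did not pass without the replicate block (limma-trend adjusted p = 0.085) and was close to the threshold with it (0.048). Its exons overlap those of Fastk on the opposite strand.

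Sodium-proton exchangers move protons out of the cell or into organelles in exchange for sodium. Of 16 listed genes for these exchangers and their partners 10 were tested, of which 4 fell in normoxia, 0 rose and 6 did not pass (40% called, against 34.6% of all tested genes), with a median log2 change of -0.30 where that of all tested genes was 0.0049. Chp1, a calcium-binding partner of sodium-proton exchangers, fell by 0.35 (SE 0.057, limma-trend adjusted p = 0.00077), from 68.0 ± 0.87 to 53.5 ± 3.55 CPM per kb of exon. Slc9a9 (NHE9), an exchanger of endosomes, fell by 0.75 (SE 0.15, adjusted p = 0.0022). Slc9a3r2, a scaffold protein, fell by 0.47 (SE 0.11, adjusted p = 0.0054), and its call was lost with the GC content and length correction (0.095). With the replicate block 6 genes of this list fell and 0 rose (60% called, against 46% of all tested genes). With the correction 5 fell and 1, Slc9a3r1, rose (60%, against 29.5%). With both, 7 fell and 1 rose (80%, against 43.2%).

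The vacuolar proton pump (V-ATPase) acidifies lysosomes and endosomes. Of 25 subunit and accessory genes 21 were tested, and 6 rose, 2 fell and 13 did not pass (38.1% called, against 34.6% of all tested genes). With the GC content and length correction 3 rose and 2 fell (23.8%, against 29.5%). With the replicate block, 6 rose and 4 fell (47.6%, against 46%). The V1 sector, which hydrolyses ATP in the cytosol, had 5 of its 9 tested genes higher and 0 lower, where 18% of all tested genes were higher, and 2 of 9 with the correction, where 15.1% were. Atp6v1c1 rose by 0.44 (SE 0.069, limma-trend adjusted p = 0.00063), from 35.9 to 39.8 CPM in hypoxia to 48.3 to 56.8 CPM in normoxia. Atp6v1e1 rose by 0.40 (SE 0.065, adjusted p = 0.00074), and Atp6v1d, Atp6v1h and Atp6v1a rose by 0.33, 0.30 and 0.28. In the membrane-bound V0 sector, Atp6v0a2 rose by 0.30, while Atp6v0e and Atp6v0a1 fell by 0.33 and 0.25, the latter not with library totals only (adjusted p = 0.087). The split by sector was chosen after the values were seen. Of the V1 genes, Atp6v1c1 and Atp6v1e1 kept their call with the GC content and length correction, and the changes of Atp6v1d, Atp6v1h and Atp6v1a were then 0.13, 0.052 and 0.11. The osteoclast markers, of a cell type rich in this pump, summed to 136 to 146 CPM in hypoxia and 175 to 193 CPM in normoxia, nearly all of it Ctsk, with 3 of 4 tested markers called (Ctsk higher, Acp5 and Itgb3 lower), Calcr at 0 in every sample, and Dcstamp and Ocstamp at no more than 3 counts. Their part in the result was not tested.

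Of 10 receptors and channels that sense acid or lactate, 4 were tested and 1 fell (25% called, against 34.6% of all tested genes). Hcar1, the lactate receptor, fell by 1.27 (SE 0.41, limma-trend adjusted p = 0.030), from 5 to 20 counts per sample in hypoxia to 1 to 6 counts in normoxia, and the ranges overlapped. The call was lost without hypoxia replicates 2 or 4 (limma-trend adjusted p = 0.073 and 0.096) or normoxia replicates 1, 2 or 3 (0.058, 0.065 and 0.079). Asic3, an acid-sensing ion channel, did not pass (adjusted p = 0.16) and passed with the block (0.0029). With the GC content and length correction it did not pass, either without the block (limma-trend adjusted p = 0.42) or with it (0.059). Gpr65, a proton-sensing receptor of leukocytes, had 12 to 28 counts and a log2 change of -0.014 (SE 0.32).

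Over all 7 lists together, 57 of the 91 genes were tested and 21 passed (36.8%, against 34.6% of all tested genes), 13 lower and 8 higher in normoxia. Their median log2 change was -0.13.

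**Figure D4:**
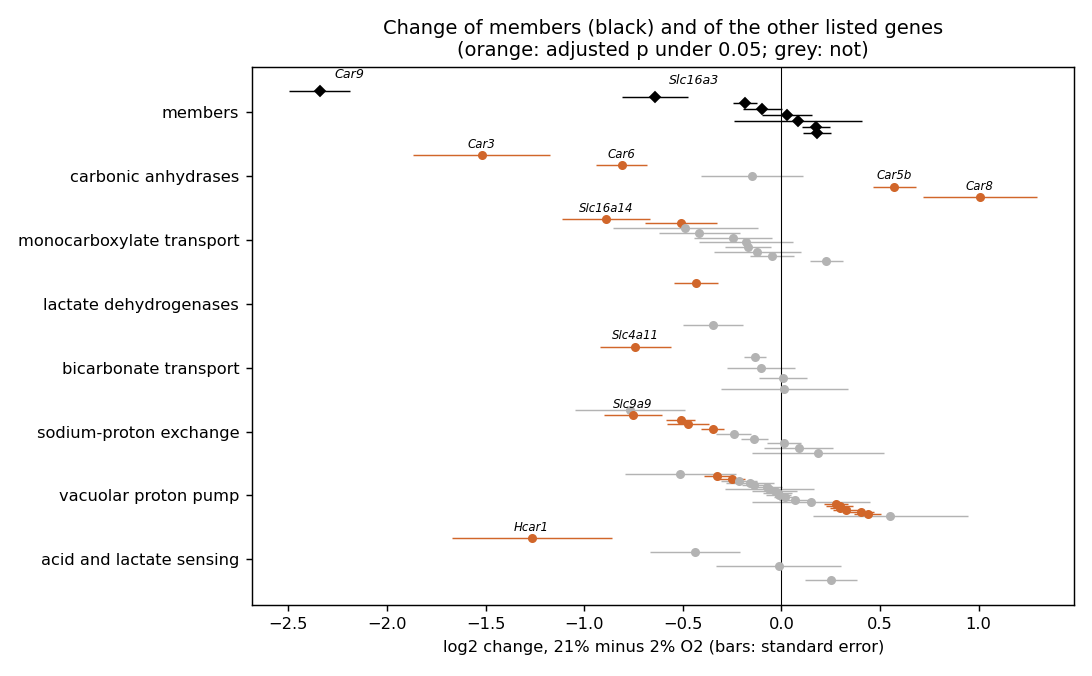
Log2 change from 2% to 21% oxygen with its standard error for the 8 members that passed the filter (black diamonds) and the 57 other tested genes of the 7 lists (orange: limma-trend adjusted p under 0.05, grey: not). Car9 lies farthest to the left of all, the sodium-proton exchange list has its orange points only on the left, and the vacuolar proton pump has them on both sides.

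The small changes among the 9 genes moved when GC content and length of the transcripts were removed together. The changes of Bsg, Slc4a7 and Car13 crossed 0, whereas those of Car9, Slc16a3, Ldhb, Slc16a1 and Car12 kept their direction. Bsg, Slc16a3 and Car9 had GC contents of 57.6%, 56.6% and 53.9%, above the median of 49.7% of the tested genes, and all were lower in normoxia. Ldhb, at 53.0%, was also above the median but was higher in normoxia. Slc4a7, Car13 and Slc16a1 had 41.6%, 41.7% and 42.9%. After the correction, the log2 changes were -2.22 for Car9 (SE 0.15) and -0.51 for Slc16a3 (SE 0.17). Ldhb moved from 0.18 to 0.31 (SE 0.064), Slc16a1 from -0.097 to -0.30 (SE 0.094) and Car13 from 0.027 to -0.15 (SE 0.12). Bsg and Slc4a7 moved to 0.031 and -0.018, within their errors of 0. By the criterion for all genes, 3 of the 8 were then lower (Car9, Slc16a3 and Slc16a1) and 1 higher (Ldhb), where 14.4% and 15.1% of all tested genes were (29.5% in either direction). The same numbers were obtained with the correction and the replicate block, where 21.5% and 21.7% of all tested genes were counted (43.2% in either direction).

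**Figure D5:**
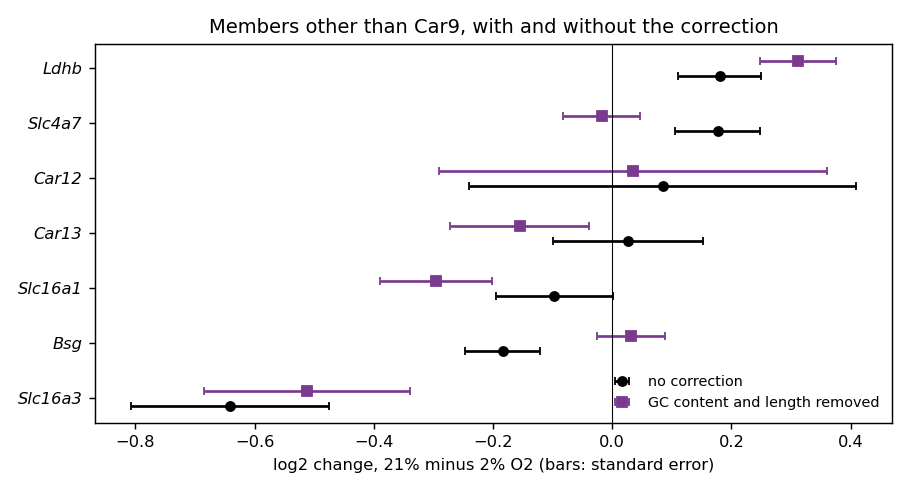
Log2 change from 2% to 21% oxygen with its standard error for the 7 tested members other than Car9, without correction (black circles) and with GC content and length of the transcripts removed (purple squares). Slc16a3 stays below 0 and Ldhb above it, while Bsg, Slc4a7 and Car13 cross 0.

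Finally, the genes whose pattern was most like that of individual members of the set were found by Pearson's correlation of log2 CPM over the 8 samples, which share the oxygen contrast, among tested genes with a mean of at least 3. For Car9 these included Eif3f, Pcbp2, Zkscan17 and Slc29a1 (r = 0.99 to 1.00), all of which changed far less than Car9, with log2 changes of -0.77 to -0.55. For Slc16a3 it was Ldha (r = 0.99), for Bsg Sptssa (0.99), for Ldhb Fth1 (0.98), for Car12 Ssr1 (0.97), for Slc16a1 Ckap4 (0.96) and for Car13 4632415L05Rik (0.91). The highest macrophage marker sum lay in replicate 3 of each group, where Slc16a3, which macrophages also express, was the second highest of its group. The lowest marker sum lay in replicate 1 of each group, where Slc16a3 was the highest of its group. In every same-numbered pair the sum of all 8 markers was higher in normoxia, and that of the 7 other than Lyz2 was lower, as Slc16a3 was. Their part in the values of Slc16a3 was not tested.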

How the data were processed

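Per the methods of the study, NEBNext Ultra II libraries were sequenced as single-end reads. The authors processed the reads with zUMIs, STAR and featureCounts on mm10 with Ensembl annotation and deposited raw counts per gene, one column per sample. Strand, intron and multi-mapping settings are not given in the sources used here.

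Symbols, positions and exon lengths came from GENCODE M21 (GRCm38, the same assembly). Symbols were found for 53360 of 53465 identifiers. Genes were kept by filterByExpr of edgeR 4.0.16 with a minimum count of 5 (14369 genes, 99.9% of counts). TMM-scaled log2 CPM with a prior count of 3 were compared by limma-trend (limma 3.58.1, R 4.3.3) with Benjamini-Hochberg adjustment over all tested genes. Filter and test are those of the study. A positive change means a higher value in normoxia. The prior count shrinks changes of genes with few counts. Fold values are ratios of mean CPM.

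The members and lists were chosen with earlier results of these data known. Named are all members, called list genes (up to 5 per list by size), abundant genes of a list, Ldha, and the best correlated genes. The rest of the called proton pump genes, Asic1, Asic3, Gpr65, Slc16a7, Slc9a3r1 and the genes of the marker lists were named after their values were seen. Same-numbered samples deviated together from their group means (r = 0.47, 0.28, 0.25 and 0.17), and the study divided a sorted population. The numbers were therefore taken to pair the samples, which the labels do not state. Samples with different numbers were not compared in this way. Standard deviations and standard errors measure the spread between samples, whereas floors cover counting error only. Replicates were no copies of each other (chi-square per degree of freedom of at least 3.66). GC content and length were removed per sample with splines of 5 degrees of freedom. Alternatives were other size factors, filters and prior counts, DESeq2 1.42.0, limma-voom, the quasi-likelihood test of edgeR, the replicate block, and leaving out each sample. The marker sum without Lyz2 and the anhydrase shares by longest transcript were added after seeing the data. Methods were tested on simulated data. Some genes that the rule names are not reported here.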

Additional observations from a re-analysis of the deposited data

Results flagged for a closer look

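Among 28 sets of 4 values searched (the log2 CPM of the 8 tested members and Ldha, 4 level ratios and the total count, each in 1 group), 3 held a sample far from the other 3, where chance gives 1.4. All were hypoxia replicate 1. It held 25132141 counts, and the other 3 held 12929564 to 13219647, so that the gap was 0.976 of the range. Its log2 CPM of Slc16a1 was the highest of the group (gap of 0.911 of the range), and so was its log2 CPM of Car12 (gap of 0.833 of the range, just above the critical value). Slc16a3 and Ldha were also highest in this sample, with gaps below that value, whereas Car9 was not.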

How the results depend on the processing

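Over all alternatives the log2 change of Car9 stayed between -2.46 and -2.22, that of Slc16a3 between -0.80 and -0.47 and that of Ldhb between 0.15 and 0.31. Values near 0 turned sign. Car12 was -0.100 with the edgeR quasi-likelihood test, -0.061 with DESeq2 and -0.062 with limma-voom, and -0.10 to 0.41 when a sample was left out. Car13 was -0.0027 with DESeq2 and -0.15 with the GC content and length correction, with or without the replicate block, and -0.11 to 0.095 when a sample was left out. Slc16a1 was -0.14 to 0.0067 when a sample was left out. Slc4a7 was -0.018 and Bsg 0.031 with the correction, with or without the block. GC content and length were removed together, and the cause was not tested. The number of members called higher in normoxia moved from 0 to 2 with library totals only and with the replicate block, to 1 with the correction, with or without the block, and ranged from 0 to 1 when a sample was left out, the 1 being without hypoxia replicate 1. At an unadjusted p under 0.05 it was 2, and by the edgeR test, DESeq2 and limma-voom it was 0. With library totals only, 69.6% of all called genes were higher in normoxia, against 52.2% with TMM factors, and 9 list genes were called higher and 11 lower against 8 and 13. The replicate block kept all 21 calls among the list genes and added 7 (9 higher and 19 lower in all). These made up 49.1% of the tested list genes, where 46% of all tested genes were called with the block. The number of members called lower was 2 or 3 in every alternative. The level ratios kept their sign throughout, and those of Slc16a3 to Slc16a1 and Ldha to Ldhb ranged from -0.66 to -0.43 and from -0.72 to -0.50 when a sample was left out. Genes with few counts, such as Car3, Car8, Hcar1 and Car12, are limited by depth.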
